A study of Mus musculus with 160 samples.

Results

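Immunity-related GTPases (IRGs) are interferon-inducible proteins with which mouse cells defend themselves against microbes living in vacuoles. The 7 genes described here were chosen by name, as Irgm1, Irgm2, Igtp, Iigp1, Ifi47, Tgtp1 and Tgtp2, from the 39179 genes counted in each of 160 distal colon libraries. The choice used no measured value as a criterion, but earlier results of these data were known when it was made. Each library came from 1 mouse of a line in which Nckap1l (the labels' HEM1), Dock2, Gpsm3 or Dok3 had been deleted or was intact. The Nckap1l line held 16 homozygous knockout (KO) and 15 wild-type (WT) mice on C57BL6/J, with 4 KO and 8 WT females. The Dock2 line held 18 KO and 24 WT mice on C57BL6/J, with 8 KO and 12 WT females. The Gpsm3 line held 20 KO and 20 WT mice on C57BL6/J, and the Dok3 line held 26 KO and 21 WT mice of strain 129, all labelled male. Wild types were littermates from heterozygous crosses, and ages are not in the labels. The study's methods also name a 129 strain for the Dok3 mice, yet have all lines rederived through C57BL6/J females. The background behind the label 129 is therefore not settled. According to the labels, dextran sulfate sodium (DSS), a polymer that injures the colonic epithelium, was given in drinking water for 5 days, at 3% in the Dock2 and Gpsm3 lines, 3.5% in the Dok3 line and an unlabelled dose in the Nckap1l line. The study's methods describe 3% in a first round for the Dok3 line and 3.5% after it, and a slightly lower dose for the Nckap1l line. The round of each Dok3 mouse is not in the labels, so its dose may not be uniform. Tissue was taken on day 10, or day 12 in the Nckap1l line. Since the labels do not say which mice received DSS, treated and untreated animals could not be separated and every comparison runs over both together.

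On GRCm38, 6 of the 7 genes lie on chromosome 11 and Iigp1 lies on chromosome 18. Irgm1 (ENSMUSG00000046879) spans bases 48861968 to 48871683 of the minus strand. Tgtp1 (ENSMUSG00000078922, 48985327 to 48994172) and Tgtp2 (ENSMUSG00000078921, 49057194 to 49064206) follow on the same strand, and Ifi47 (ENSMUSG00000078920, 49076587 to 49096974) on the plus strand. A second cluster on the plus strand holds Igtp (ENSMUSG00000078853, 58199556 to 58207591) and Irgm2 (ENSMUSG00000069874, 58199618 to 58222782), whose annotated exons share 162 bases. Exons of Tgtp1 share 223 bases with Gm12185, and those of Ifi47 share 217 with Olfr56 and the antisense gene Gm12188, so part of these counts may be shared or, without a stated strand setting, misplaced. Iigp1 (ENSMUSG00000054072) spans 60376027 to 60392634 of the plus strand.

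IRG proteins fall into a regulatory and an effector class, named after the residues of their nucleotide-binding loop. The GMS class, comprising Irgm1, Irgm2 and Igtp (also called Irgm3), sits on the membranes of the cell itself and holds the other class inactive there. The GKS class, comprising Iigp1 (Irga6), Ifi47 (Irgd) and the closely related Tgtp1 and Tgtp2 (Irgb6), loads onto the vacuoles of parasites such as Toxoplasma gondii and damages them. Interferon gamma is the main inducer, with Irf1 among the factors that act on the genes, and both immune cells and epithelial cells respond to it. IRGM, the human relative of the GMS genes, acts in autophagy and lies at a locus associated with Crohn's disease.

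The promoter windows of RefSeq on GRCm38.p6, which run from 250 bases before to 50 bases after a start site, held 6 of the 7 genes. They were searched on both strands for the interferon-stimulated response element (ISRE), written GAAA, any 2 bases, then GAAA, and for the gamma-activated site (GAS), written TTC, any 3 bases, then GAA. An ISRE match was present in 3.44% and a GAS match in 8.30% of 32851 promoters. In Igtp, Irgm2, Tgtp1 and Tgtp2 both matches were present, with the ISRE starting 2 bases after the end of the GAS. That arrangement, described after these sequences had been read, was found in 5 promoters of the table (0.0152%), the fifth being Gm12185, a further family gene that overlaps Tgtp1. The 60 bases around the matches are printed for these 4 genes and for Irgm1, because they show what the members share beyond their family name, with ISRE and GAS letters in capitals.
Igtp: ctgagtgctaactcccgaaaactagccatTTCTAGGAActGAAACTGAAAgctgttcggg
Irgm2: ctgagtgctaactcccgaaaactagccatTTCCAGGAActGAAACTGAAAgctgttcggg
Tgtp1: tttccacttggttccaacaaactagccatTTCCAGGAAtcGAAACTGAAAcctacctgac
Tgtp2: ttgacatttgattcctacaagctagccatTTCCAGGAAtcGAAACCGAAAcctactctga
Irgm1: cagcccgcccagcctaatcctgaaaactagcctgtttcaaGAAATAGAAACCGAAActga

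These runs lie at chr11:58199482-58199541 (Igtp, plus strand), chr11:58214873-58214932 (Irgm2, plus), chr11:48992304-48992363 (Tgtp1, minus), chr11:49064263-49064322 (Tgtp2, minus) and chr11:48871431-48871490 (Irgm1, minus). The ISRE match began 34 bases before the start site in Igtp, 64 in Irgm2, 77 in Tgtp1 and 70 in Tgtp2. Irgm1 carried 2 overlapping ISRE matches, the first beginning 30 bases before its start, and no GAS match in its window. The window of Ifi47 matched neither motif. Over the whole windows, Igtp and Irgm2 were identical at 92.1% of 265 aligned bases, and Tgtp1 and Tgtp2 at 77.5% of 276. A match is a run of letters and was not measured here as a binding site.

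Libraries held 4344988 to 19993833 counts, with a median of 15989625. A count of 3 was thus worth between 0.15 and 0.69 CPM, the level unit used throughout, in which counts are scaled to a common library size by TMM. Such limits cover counting error only, whereas the intervals given for fold changes come from edgeR and include the spread between mice. Summed markers of skin or striated muscle exceeded 100 CPM in 34 of 160 libraries, among them 8 Nckap1l KO and 9 Nckap1l WT. Sex markers went against the male label in 5 Dok3 libraries. Epithelial markers of colonocytes were detected in every group, at medians of 5268 to 7479 CPM summed over 8 genes. Of the deleted genes, the Gpsm3 transcript was lower in its KO (log2 fold change -2.06, edgeR adjusted p = 0.0001). The transcripts of Nckap1l (-1.09, adjusted p = 1), Dock2 (-0.62, adjusted p = 0.21) and Dok3 (-0.48, adjusted p = 1) did not pass the threshold in theirs. For Dok3 the pooled value hid opposite signs in the 2 blocks of consecutive sample numbers, the only trace of batches in the labels. In the first block the transcript was higher in the 17 libraries labelled KO than in the 13 labelled WT, though not past the threshold (0.60, SE 0.47, edgeR adjusted p = 1), with medians of 3.86 and 2.49 CPM. In the second it was lower in the 9 labelled KO than in the 8 labelled WT (-2.45, SE 0.44, edgeR adjusted p = 0.0372), with medians of 1.34 and 10.19 CPM. The Dok3 labels are therefore checked in the second block and not in the first, where the transcript went against them. In the Nckap1l line the deleted gene had lower fitted KO values in all 3 blocks (-0.49, -0.83 and -2.30, edgeR adjusted p from 0.435 to 0.976), as it had in both blocks of the Gpsm3 line (-1.95 and -2.16, adjusted p of 0.229 and 0.451).

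All 7 genes were detected in all 160 libraries and each differed widely between mice. In whole tissue, fewer cells of a type and less RNA per cell cannot be told apart, here or in any later result. Among the regulators, Irgm1 ranged from 22.98 to 279.0 CPM with a median of 46.23, Irgm2 from 10.16 to 303.4 with a median of 37.74, and Igtp from 3.67 to 205.2 with a median of 15.58. Among the effectors, Iigp1 ranged from 3.03 to 639.2 CPM with a median of 18.4 and Ifi47 from 1.68 to 123.4 with a median of 8.04. Tgtp2 ranged from 0.408 to 67.4 CPM (median 3.20) and Tgtp1 from 0.0865 to 73.9 (median 1.34), and the lowest Tgtp1 library held 1 count. The ratio of the highest to the lowest library was therefore 12.1 for Irgm1, 29.9 for Irgm2 and 55.9 for Igtp, against 73.3 for Ifi47, 165 for Tgtp2 and 211 for Iigp1. For Tgtp1 the corresponding ratio of 854 rests on that single count and carries its counting error.

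Per kilobase of exon, the order of the median levels was Irgm2 (10.23 CPM per kilobase), Irgm1 (7.96), Igtp (7.71), Ifi47 (3.25), Iigp1 (3.16), Tgtp2 (1.09) and Tgtp1 (0.42). Irgm2 was above Irgm1 in 140 of 160 libraries, Igtp above Ifi47 in 159, Iigp1 above Tgtp2 in 160 and Tgtp2 above Tgtp1 in 155. Irgm1 was above its neighbour Igtp in only 84 libraries, and Ifi47 above Iigp1 in 88, so these pairs could not be ordered over all libraries. In the Nckap1l line Irgm1 was above Igtp in 4 of 15 WT and 1 of 16 KO mice. Ifi47 was above Iigp1 there in 4 of 15 and 4 of 16. Over all 160 libraries the 3 regulators had higher median levels than the 4 effectors on this scale. This did not hold in each group, since Iigp1 and Ifi47 had higher medians than Irgm1 in the Nckap1l KO. The levels of Tgtp1 and Tgtp2 are uncertain, since 73.1% of the 100-base windows of Tgtp1 transcripts and 76.8% of those of Tgtp2 occur in another gene, nearly all in each other. For the remaining members this share was between 0% and 5.2%.

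The spread was large even among mice of the same line, genotype and sex. On the log2 CPM scale the standard deviation within such groups was 0.72 for Irgm1, 0.88 for Irgm2, 1.08 for Igtp, 1.19 for Ifi47, 1.19 for Tgtp2, 1.42 for Iigp1 and 1.43 for Tgtp1. The median over 14514 genes of at least moderate level was 0.28, and the members stood between the 90.3rd and 98.8th percentile. The regulators had the smaller spread on this scale. The spread is that between animals that differ in treatment as well, because DSS is not labelled per mouse.

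**Figure D1:**
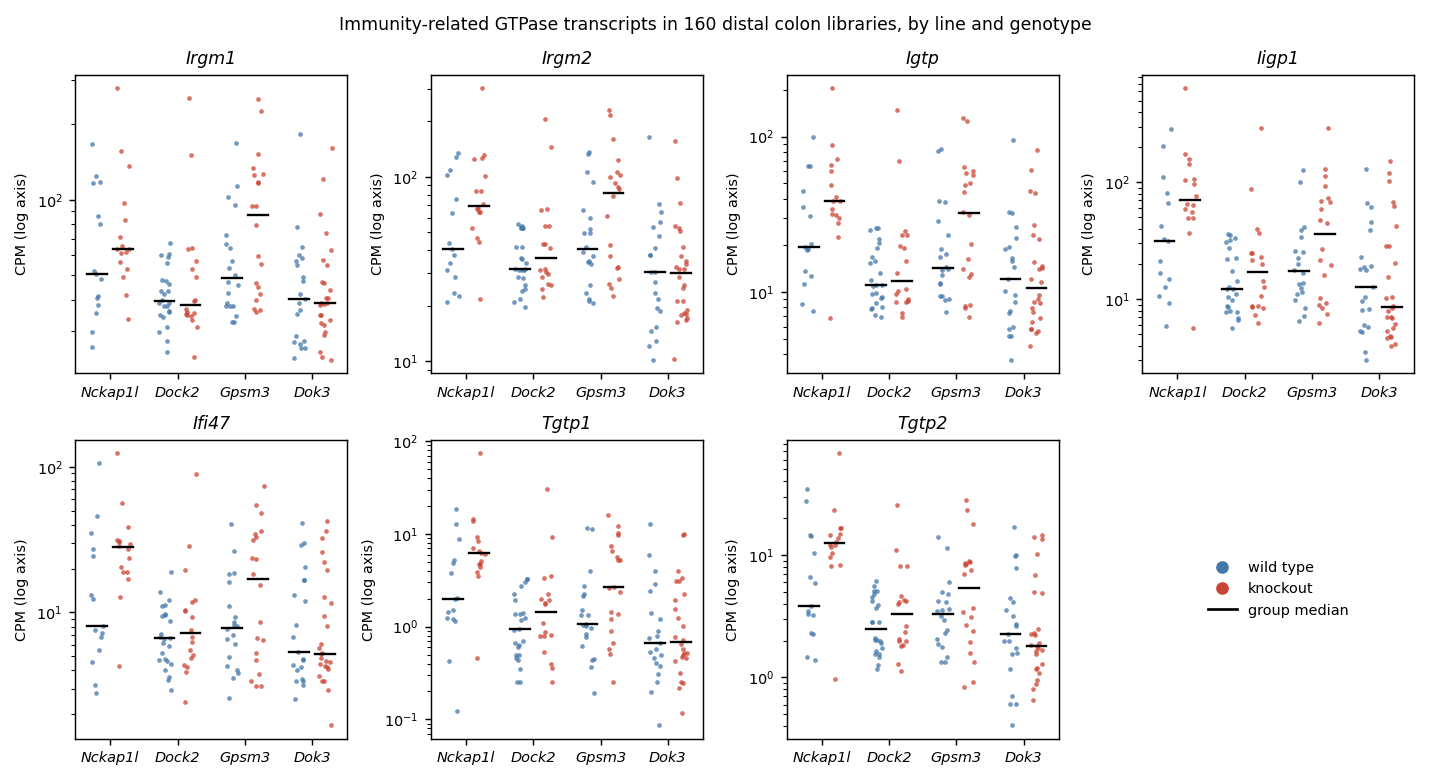
Level of each IRG gene in 160 libraries (1 point per mouse, CPM on a log axis) by line, with WT in blue, KO in red and a bar at each group median. KO and WT overlap in every line, and 1 Nckap1l KO library is the highest of all for each gene, for example at 639.2 CPM for Iigp1.

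High libraries were high in all members together. A male Nckap1l KO (replicate 14) had the highest level of the whole series for all 7 genes. It reached 639.2 CPM for Iigp1, where the next mouse of its group had 173.4, and 205.2 for Igtp, where the next had 88.95. One library was likewise the highest of its group for all 7 genes in the Nckap1l WT (replicate 10), the Dock2 KO (replicate 3) and the Dok3 WT (replicate 20). In the Dock2 KO that male had 147.5 CPM of Igtp and 289.4 of Iigp1, with the next mice at 69.53 and 87.84. These 4 libraries touch several of the differences given further on.

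Within each line, every pair of members was correlated across mice (log2 CPM). Genotypes and sexes were pooled in all correlations given by line. Over the 21 pairs, Pearson's r ranged from 0.847 to 0.976 in the Nckap1l line (31 mice), from 0.829 to 0.975 in the Dock2 line (42 mice), from 0.91 to 0.979 in the Gpsm3 line (40 mice) and from 0.838 to 0.964 in the Dok3 line (47 mice). Spearman's rho ranged from 0.745 to 0.973 over the 4 lines. All had an adjusted permutation p of 2.03e-05 for r and 2.17e-05 for rho, the smallest that 100000 permutations could give after adjustment over 364 relations. Without the 2 mice farthest from the median, r stayed between 0.719 and 0.973. Within blocks of sample numbers r lay between 0.79 and 0.993. With values centred on genotype and sex, 256 of all 364 relations passed the adjusted threshold by r, against 259 without centring. Igtp and Irgm2, which share exonic bases and promoter sequence, gave the closest pair over all 160 mice (r = 0.971), and Irgm1 and Tgtp2 the loosest (r = 0.863), as description only. Iigp1 and Irgm1 shared no 100-base window with any gene, and their r with each other over all mice was 0.891.

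**Figure D2:**
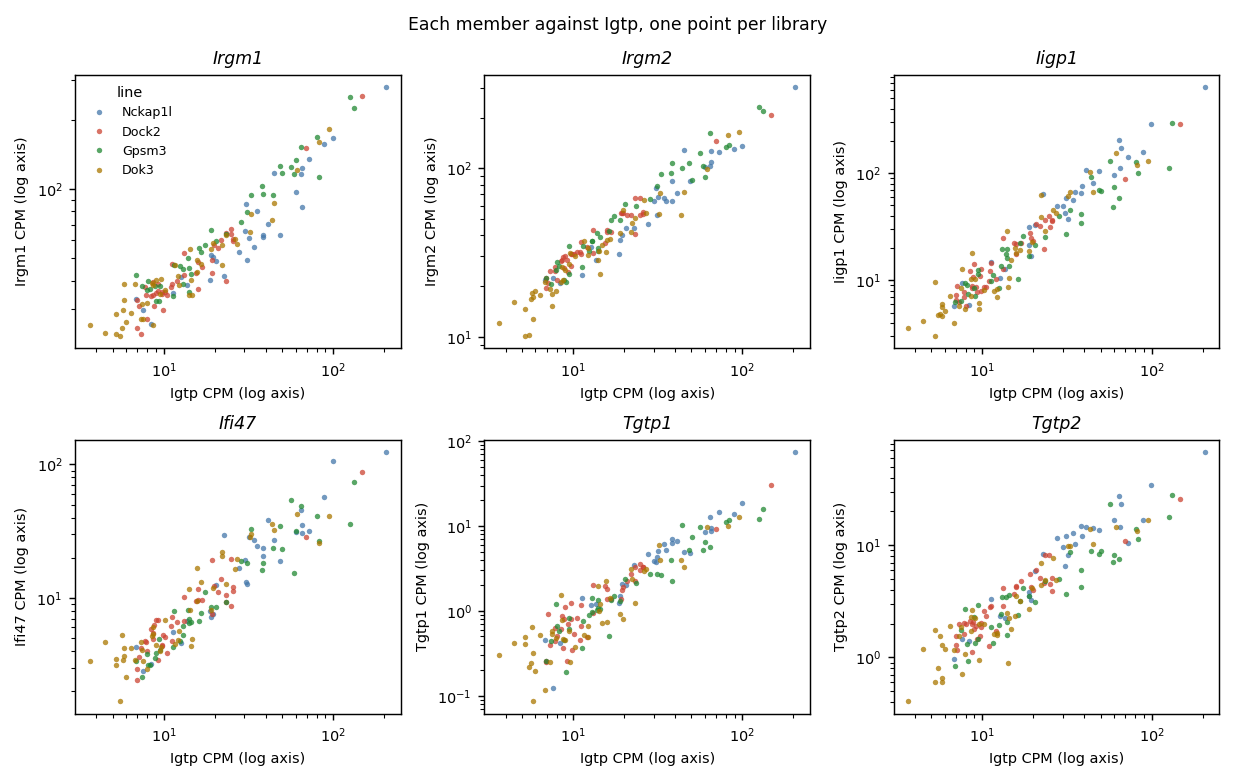
CPM of each other member against CPM of Igtp, both on log axes, with 1 point per mouse and a colour per line. The points of all 4 lines fall along 1 band in each panel, tightest for Irgm2 (r = 0.971 over 160 mice on the log2 scale).

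The genes that followed the members most closely over the whole transcriptome were then ranked. With line, genotype and sex centred out, the genes with the highest mean r to the 7 members over 160 mice included Gm12250 (0.934), Gm43302 (0.929), Tap1 (0.922) and Gbp3 (0.913). Gm12250 is the locus of Irgb10, a further GKS gene annotated here as a processed pseudogene at chr11:58187739-58189012, beside Igtp. Tap1 is the peptide transporter of antigen presentation, and Gbp3 a guanylate-binding protein of the same defence system. By single member, Irgm1 was followed next by Gbp7 (0.931), and Iigp1 and Tgtp2 by Gbp4 (0.946 and 0.93). Of 14508 genes compared, 21 had a mean r above 0.8. Among them were Nlrc5, the activator of MHC class I genes (rank 14), and Socs1, the feedback inhibitor of Jak signalling (rank 19), whereas Irf1 ranked 34 and Ciita 148.

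Correlation with the signal upstream was followed through Irf1 and Ifng in each line. Irf1, a factor that binds ISRE sites, correlated with the members at r = 0.602 to 0.91 over the 4 lines, with rho from 0.494 to 0.906. Ifng, the gene of interferon gamma itself, gave 0.603 to 0.807, all 28 relations passing at an adjusted permutation p of at most 0.00019. Spearman's rho of Ifng with the members was 0.457 to 0.785. Ifng was near the floor of these libraries, with a median of 0.0638 CPM, a highest value of 1.93 CPM and 0 counts in 55 of 160, which allows up to 0.15 to 0.69 CPM there. Its correlations rest on 0 to 30 counts per mouse. Within blocks of sample numbers, available in the Nckap1l, Gpsm3 and Dok3 lines, r was 0.454 to 0.945 for Irf1 and 0.519 to 0.919 for Ifng.

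The members were also set against the summed markers of the cell types that the tissue could hold. With 10 T and NK cell markers, r was 0.583 to 0.734 in the Nckap1l line, 0.741 to 0.839 in Gpsm3 and 0.547 to 0.78 in Dok3, past the threshold for all 7 members. In the Dock2 line r was 0.0903 to 0.392 and only 1 of 7 passed by r and 0 of 7 by rho. The difference in r between lines was not tested. Without the 2 mice of most extreme marker sums, r was 0.456 to 0.848 in the first 3 of these lines and -0.105 to 0.341 in Dock2, and within blocks it was 0.426 to 0.935. With 8 macrophage markers r ranged from 0.242 to 0.734 over the lines. It passed for 2 of 7 members in Dock2 and 7 of 7 in each other line, with adjusted permutation p up to 0.0499 in Nckap1l. With 8 neutrophil markers r ranged from 0.379 to 0.747, past for 6 of 7 in Nckap1l and 7 of 7 in each other line. Within blocks these were 0.249 to 0.836 and -0.0983 to 0.853, so the relation with neutrophils did not hold in each block. Colonocyte markers ran the other way, from -0.59 to 0.0292, with 5 of 7 members past the threshold in the Dok3 line, 1 of 7 in the Nckap1l and the Gpsm3 line and 0 of 7 in Dock2, and it lay between -0.879 and -0.00607 within blocks. With 6 B cell markers r was -0.369 to -0.285 in the Dock2 line (5 of 7 past) and -0.0315 to 0.396 in the others (3 of 21 past, all in Gpsm3). The Dock2 KO had lower B cell markers and higher fitted member values, so r there is not free of genotype. Skin and striated muscle markers gave -0.311 to 0.386 (2 of 28 past for each, all in Dok3). Within blocks r was -0.534 to 0.442 for B cell markers, -0.493 to 0.504 for skin and -0.324 to 0.481 for muscle, so none of these 3 kept its sign throughout.

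**Figure D3:**
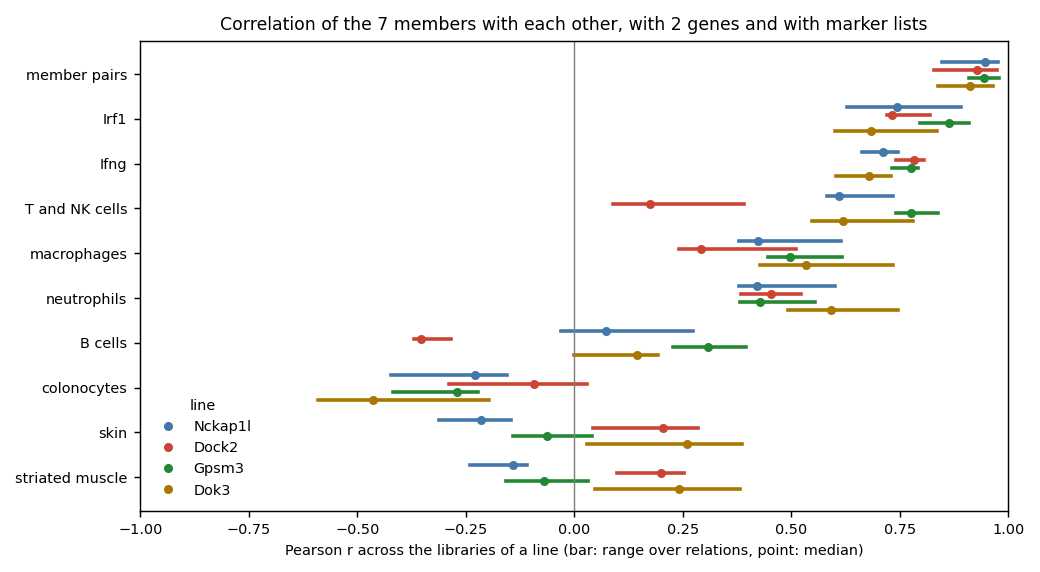
Pearson's r across the mice of each line between the 7 members themselves, between members and Irf1 or Ifng, and between members and summed cell type markers. Bars span the relations and points mark their median, which lies above 0.9 for member pairs in every line and lower for each marker list, with T and NK cells at 0.174 in the Dock2 line.

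Loss of each gene was compared with its wild type to ask whether the knocked-out regulator changed IRG expression. In no line did any member pass an adjusted p of 0.05 in edgeR's quasi-likelihood test. The same threshold was passed by 0% of 17947 genes in the Nckap1l line, 0.034% of 17648 in Dock2, 0.00569% of 17560 in Gpsm3 and 0% of 17612 in Dok3. KO and WT overlapped for every member in every line. Without adjustment, p was under 0.05 for 0 of 7 members in the Nckap1l line (4.5% of all genes), 7 of 7 in Dock2 (5.1%), 7 of 7 in Gpsm3 (4.86%) and 0 of 7 in Dok3 (2.19%). Fitted log2 fold changes were above 0 for 7 of 7 members in the Nckap1l line (53.3% of all genes), 7 of 7 in Dock2 (48.2%), 7 of 7 in Gpsm3 (51.4%) and 5 of 7 in Dok3 (50%). As the 7 genes move together across mice, 7 of 7 is not 7 independent results. DESeq2 gave 0 members past the adjusted threshold in each line and the same unadjusted counts, against 4.94%, 5.18%, 5.03% and 2.24% of all genes in the same order of lines. By contrast, limma-voom gave 4, 0, 2 and 0 members with an unadjusted p under 0.05, against 3.94%, 4.07%, 2.91% and 1.75% of genes.

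**Figure D4:**
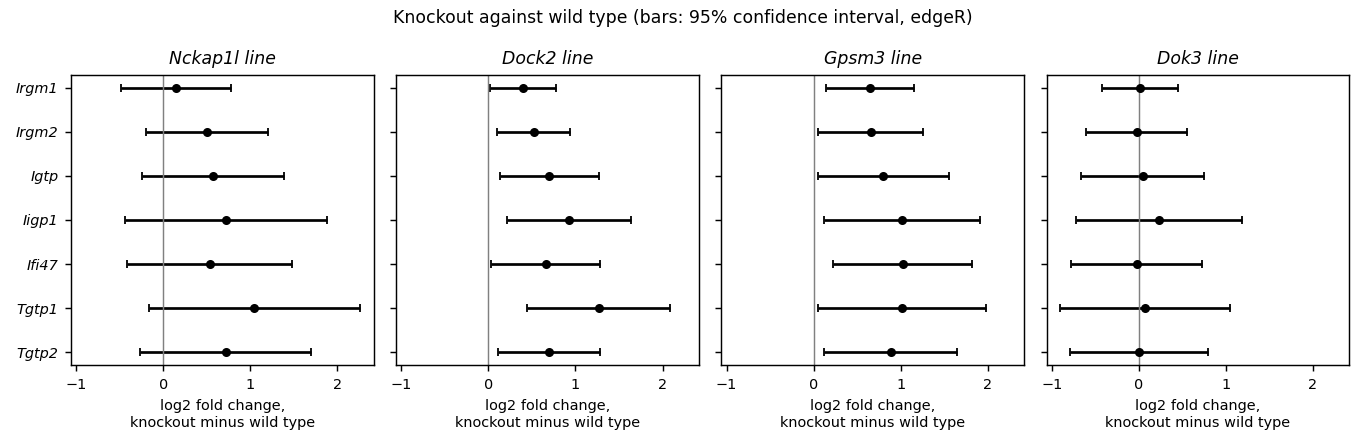
Log2 fold change of KO over WT for the 7 members in each line, with 95% confidence intervals from edgeR. The intervals lie above 0 in the Dock2 and Gpsm3 lines before adjustment for multiple testing and span 0 in the Nckap1l and Dok3 lines.

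In the Gpsm3 line the members had higher values in the KO, though not past the adjusted threshold. Igtp had a lowest, median and highest level of 7.47, 14.28 and 83.1 CPM in the 20 WT mice and of 6.90, 32.09 and 132.2 CPM in the 20 KO mice. For Irgm1 these were 32.59, 48.59 and 169.0 CPM in WT and 35.83, 86.96 and 253.3 CPM in KO. The groups shared most of their range, with 12 to 15 of 20 KO mice above the WT median, depending on the member, and 2 or 3 above the highest WT. The log2 fold change was 0.65 (SE 0.25) for Irgm1, 0.65 (0.30) for Irgm2 and 0.80 (0.37) for Igtp in edgeR, with an adjusted p of 0.936 for each. For the effectors it was 1.01 (SE 0.44) for Iigp1, 1.02 (0.40) for Ifi47, 1.02 (0.48) for Tgtp1 and 0.89 (0.38) for Tgtp2, again with an adjusted p of 0.936. The median over the members was 0.89 and over all genes 0.003.

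The Gpsm3 difference was present in both blocks of sample numbers, each of 10 KO and 10 WT mice, with a median member log2 fold change of 0.63 (0 of 7 with an unadjusted p under 0.05, against 3.71% of genes) in the first and 1.20 (7 of 7, against 7.54%) in the second. Without the KO library highest in Igtp the median was 0.65 and 2 of 7 had an unadjusted p under 0.05 (3.18% of genes). Without the libraries holding skin or muscle RNA it was 0.88, with 6 of 7 (7.67%). Of 17 interferon signal transduction genes, 11 also had an unadjusted p under 0.05 with higher KO values, against 4.86% of all genes. The list median was 0.41, and 0 passed the adjusted threshold. Among them, Irf1 had a log2 fold change of 0.41 (SE 0.17). Of 9 further IRG family genes tested, 6 had an unadjusted p under 0.05 and higher KO values (4.86% of all genes), Gm12250 at 1.08 (SE 0.48).

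Markers of several immune cell types had higher fitted values in the Gpsm3 KO as well, with 0 genes of these lists at an unadjusted p under 0.05. For neutrophils all 6 tested markers were above 0 with a median log2 fold change of 0.89, the same as for the members, and the summed level ran from 35.49 to 1008 CPM in WT (median 67.48) and from 39.45 to 1075 in KO (median 82.52), with Mpo at the floor in most mice of both. For B cells 6 of 6 were above 0 (median 0.56), with sums of 4.28 to 120.2 CPM in WT (median 46.29) and 4.18 to 266.3 in KO (median 59.86). For T and NK cells it was 8 of 8 (median 0.32), with sums of 7.18 to 37.86 CPM in WT (median 14.78) and 3.58 to 57.58 in KO (median 17.05). For macrophages it was 8 of 8 (median 0.26), with sums of 228.5 to 626.5 CPM in WT (median 340.4) and 126.4 to 772.5 in KO (median 403.7). Striated muscle markers were also above 0 in 6 of 6 (median 1.27), whereas colonocyte markers had a median of 0.02 and skin markers of -0.35. The part of these markers in the Gpsm3 difference was not tested.

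In the Dock2 line the size of the fitted difference depended much on 1 KO library. Igtp had a lowest, median and highest level of 6.96, 11.18 and 25.81 CPM in 24 WT mice and of 6.97, 11.85 and 147.5 CPM in 18 KO mice. Irgm2 had 19.63, 31.68 and 55.26 CPM in WT and 22.26, 36.4 and 207.1 CPM in KO. The medians were close, 9 to 11 of 18 KO mice lay above the WT median, and 2 to 4 lay above the highest WT. In edgeR, the log2 fold change ranged from 0.40 (SE 0.19) for Irgm1 to 1.27 (SE 0.41) for Tgtp1, with a median of 0.70 and adjusted p from 0.485 to 0.956. Without KO replicate 3 the median was 0.31 and 0 of 7 members had an unadjusted p under 0.05 (4.3% of genes). That library was left out as the KO highest in Igtp, so a smaller KO difference was bound to follow. Without the libraries holding skin or muscle RNA it was 0.81, with 7 of 7 (4.95%).

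Dock2 itself also lies on chromosome 11. In the interval from Dock2 to Irgm2, 22 of 173 tested genes had an unadjusted p under 0.05 (12.7%, against 5.1% of all genes). None of the 173 passed the adjusted threshold. Those 22 include the members on chromosome 11 themselves, so the share is no separate measure of their surroundings. A part of linkage in the member values was not tested. Iigp1, on chromosome 18, had a log2 fold change of 0.92 (SE 0.35), within the range of the members on chromosome 11. B cell markers were lower in the Dock2 KO, with Cr2 past the threshold (log2 fold change -1.53, SE 0.28, edgeR adjusted p = 0.0127), 6 of 6 at an unadjusted p under 0.05 (5.1% of all genes) and medians of the sum of 20.95 CPM in KO and 56.24 in WT. T and NK cell sums had medians of 15.31 and 17.11 CPM. The part of these markers in the member values was not tested.

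In the Nckap1l line the KO and WT medians were further apart than in the Dock2 line, while edgeR found 0 members past either threshold. Ifi47 had a lowest, median and highest level of 2.81, 8.04 and 105.4 CPM in 15 WT mice and of 4.29, 28.03 and 123.4 CPM in 16 KO mice. Tgtp2 had 1.39, 3.80 and 34.28 CPM in WT and 0.972, 12.44 and 67.43 CPM in KO. For 6 members 15 of 16 KO mice lay above the WT median, and for Irgm1 13 did, while only the single highest KO mouse exceeded every WT. In edgeR the log2 fold change ran from 0.15 (SE 0.31) for Irgm1 to 1.05 (SE 0.60) for Tgtp1, with an adjusted p of 1 for each. On limma-voom's log scale, Iigp1 (1.21), Ifi47 (1.06), Tgtp1 (1.35) and Tgtp2 (1.12) had unadjusted p of 0.0315 to 0.0416 and an adjusted p of 1.

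The Nckap1l values also differed between blocks of sample numbers. The median member log2 fold change was 1.32 in the first block (6 KO and 8 WT), -0.07 in the second (5 and 4) and 1.58 in the third (5 and 3), with 1, 0 and 0 members at an unadjusted p under 0.05, against 10.4%, 2.43% and 3% of genes. Without KO replicate 14 the median was 0.33 and Irgm1 turned to -0.03. Without the 8 KO and 9 WT libraries holding skin or muscle RNA the median was 0.72, with 0 of 7 past either threshold. B cell markers were lower in KO, with 6 of 6 at an unadjusted p under 0.05 (4.5% of all genes) and 0 past the adjusted threshold, and their sum had a median of 2.70 CPM against 36.7 in WT.

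In the Dok3 line the members did not separate by genotype label, which the Dok3 transcript itself did not follow in the first block of sample numbers. Igtp had a lowest, median and highest level of 3.67, 12.22 and 94.87 CPM in 21 mice labelled WT and of 4.50, 10.65 and 82.19 CPM in 26 mice labelled KO. The 2 groups covered the same range, with 10 to 13 of 26 KO mice above the WT median. In edgeR the log2 fold changes ran from -0.03 for Irgm2 and Ifi47 to 0.23 for Iigp1, and the 95% interval for Igtp reached from -0.66 to 0.75. Irgm1, the most precise, had an interval from -0.43 to 0.45, so larger changes lie outside it while moderate ones cannot be dismissed at this spread. The median over members was 0.01, also without the 5 libraries whose sex markers differ from the label, and -0.23 without the libraries holding skin or muscle RNA, with 0 of 7 past either threshold. In the first block, where Dok3 was higher in the libraries labelled KO, the median was 0.20, with 0 of the 6 members tested at an unadjusted p under 0.05 (0.957% of genes). In the second block, where Dok3 was lower in them past the threshold, it was -0.27, with 0 of 7 (16.1% of genes), and the 95% interval for Igtp reached from -1.39 to 1.26. Whether the KO difference itself varied between lines was tested as a genotype by line interaction, which passed for 0 of 7 members (adjusted p of 1 for each) and for 0.69% of 19849 genes. Among the marker lists it passed for the B cell gene Ms4a1 (F = 7.22, edgeR adjusted p = 0.027).

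Sex was compared in the 2 lines with both sexes. In the Dock2 line all 7 members had lower values in females, where 49.5% of all genes had higher ones, and 4 of 7 passed the adjusted threshold, against 9.75% of 17648 genes. All 7 had an unadjusted p under 0.05, against 25.6% of genes. Irgm1 had a lowest, median and highest level of 37.53, 47.67 and 67.0 CPM in 12 WT males and of 24.77, 35.17 and 45.97 CPM in 12 WT females. In KO it had 34.49, 46.19 and 254.0 CPM in 10 males and 23.51, 36.17 and 64.31 CPM in 8 females. The WT sexes overlapped only between 37.53 and 45.97 CPM, and the KO sexes more broadly. The lower female levels did not show in each KO median, since Igtp had medians of 13.03 CPM in KO females and 11.85 in KO males, and Tgtp2 of 3.42 and 3.17. The fall passed the threshold for Irgm1 (log2 fold change -0.68, SE 0.19, edgeR adjusted p = 0.0172), Igtp (-0.86, SE 0.29, 0.0471), Iigp1 (-1.19, SE 0.36, 0.0298) and Tgtp1 (-1.56, SE 0.42, 0.0153), and Gm12250 fell with them (-1.13, SE 0.38, 0.0493). Irgm2 (-0.58), Ifi47 (-0.79) and Tgtp2 (-0.65) did not pass, with adjusted p of 0.0688, 0.0994 and 0.15.

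Irgm1 was the only member to pass without Dock2 KO replicate 3, and again among WT mice alone. Without Dock2 KO replicate 3, a male, 1 of 7 members passed, against 7.55% of genes, with Irgm1 at -0.50 (edgeR adjusted p = 0.0228), while Tgtp1 stood at -1.03 (adjusted p = 0.0504), Iigp1 at -0.75 (0.0876) and Igtp at -0.55 (0.126). That male was left out as the KO highest in Igtp, so smaller sex differences were bound to follow. Leaving it out therefore does not rank the members. Among WT mice alone, Irgm1 was again the 1 member to pass, at -0.49 (adjusted p = 0.0274), against 2.08% of genes, and Tgtp1 was too low to be tested. Without libraries holding skin or muscle RNA 4 members passed, with Ifi47 in place of Igtp, against 18.3% of genes. DESeq2 passed 5 of 7 members (11.9% of genes), and edgeR without a filter on low counts 3 of 7 (4.69%). Sex could not be told apart from the order of the sample numbers, since 18 of 20 females were numbered after the last male. The knockout difference did not vary between the sexes past the threshold for any member (0 of 7, against 0.198% of genes, adjusted p = 0.999 for each).

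Markers of other cell types also had different fitted values by sex in the Dock2 line. All 6 neutrophil markers tested had lower values in females, with a median log2 fold change of -1.62, 4 at an unadjusted p under 0.05 (25.6% of all genes) and 0 past the adjusted threshold. Their sum ran from 51.62 to 2383 CPM in WT males (median 71.48) and from 21.46 to 142.2 in WT females (median 55.47), and from 47.29 to 253.6 in KO males (median 76.63) and 37.88 to 345.8 in KO females (median 66.27), with Mpo at the floor in most mice of each group. In this line the neutrophil sum correlated with all 7 members past the threshold, at r = 0.385 to 0.522 over 42 mice. Both sexes and genotypes are pooled in that r, so it holds the sex difference itself and is no separate measure. Striated muscle markers had lower fitted values in females in 6 of 6 (median -2.96). Actn3 passed the threshold (-3.71, SE 1.02, edgeR adjusted p = 0.0174). The median muscle sums were nevertheless higher in females than in males of both genotypes. The highest sums were 7691 CPM in WT males and 43.96 in WT females, but 17.26 in KO males and 510.9 in KO females. Among colonocyte markers Krt20 was lower (-0.40, SE 0.11, edgeR adjusted p = 0.0177). Skin markers (median 1.43) and B cell markers (0.22) had higher fitted values in 6 of 6, with 0 past the adjusted threshold. The highest skin sums were 2773 CPM in WT males, 3600 in WT females, 17.65 in KO males and 11670 in KO females. In the genotype by sex interaction 5 muscle and 2 skin markers passed the adjusted threshold in edgeR, with list medians of 8.5 and 8.3. The fitted sex difference of these 2 lists therefore depended on genotype. T and NK cell and macrophage markers had medians of 0.02 and -0.11 by sex. The part of these markers in the sex difference was not tested.

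**Figure D5:**
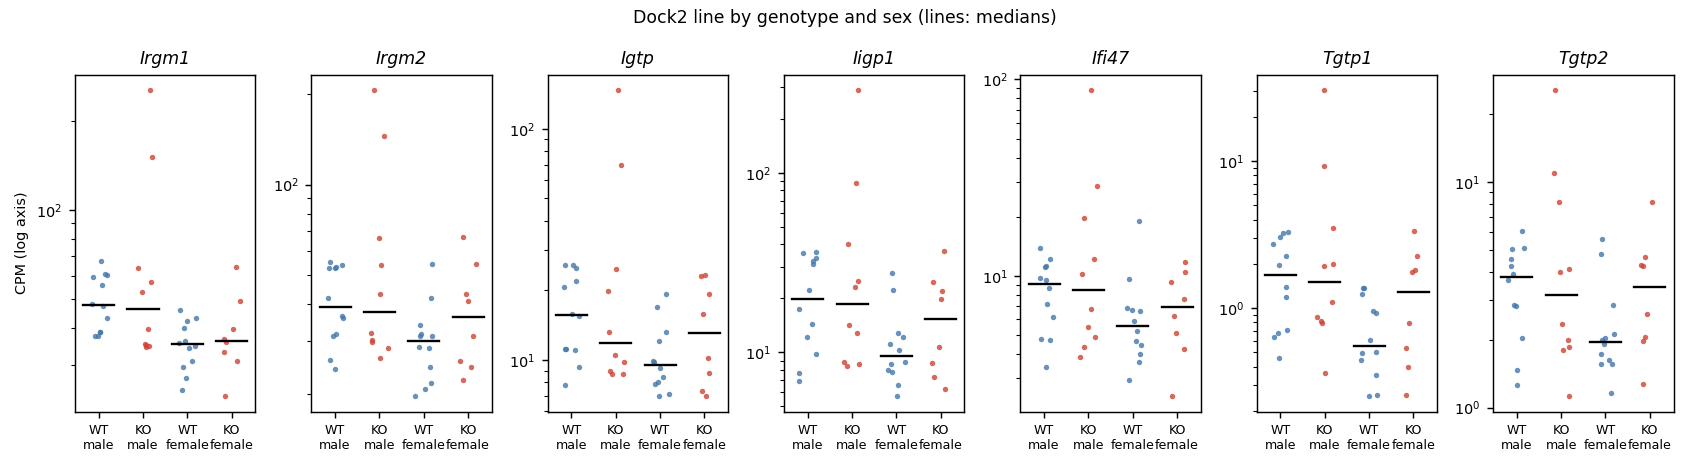
Dock2 line, CPM of each member on a log axis by genotype and sex, with 1 point per mouse and a bar at each median. WT females have lower medians than WT males for each member, 35.17 against 47.67 CPM for Irgm1, and 1 KO male stands above all others in each panel.

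In the Nckap1l line the 7 members also had lower fitted values in females, from -0.31 for Irgm2 to -0.84 for Tgtp1, with 0 of 7 past the threshold (adjusted p from 0.479 to 0.749 in edgeR, against 0.178% of 17947 genes). In that line 49% of all genes had higher fitted values in females, and 0 of 7 members had an unadjusted p under 0.05, against 15.7% of genes. With the sample-number block as a covariate the median changed from -0.58 to -0.13, and without libraries holding skin or muscle RNA to 0.09. The KO difference did not vary by sex past the threshold for any member there (0 of 7, against 0% of genes). Only 4 KO females entered that test.

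Wild-type males of the 4 lines were compared for a baseline. The level of no member differed between lines past the adjusted threshold (0 of 7, against 18.5% of 19603 genes), the smallest adjusted p being 0.0643 for Ifi47. At an unadjusted p under 0.05 there were 3 members (Ifi47, Iigp1 and Tgtp2), against 34.4% of genes. Males of the Dok3 line, of strain 129, had lower fitted values than the C57BL6/J lines for each member, from -0.26 for Ifi47 to -0.66 for Tgtp1, and 0 of 7 passed (16.1% of genes did, and 29.9% had an unadjusted p under 0.05, also without any member). Of all genes, 54.9% had higher fitted values in the 129 line. The median was -0.45, and -0.36 without the Dok3 libraries whose sex markers differ from the label. Among other genes of the pathway, Ciita, the activator of MHC class II genes, was higher in the 129 line (0.71, SE 0.17, edgeR adjusted p = 0.00185), and Becn1, an autophagy gene, was slightly lower (-0.09, SE 0.03, adjusted p = 0.0245). T cell genes Cd3e (0.81, adjusted p = 0.00785) and Cd4 (0.59, adjusted p = 0.0427) were higher, and colonocyte genes Krt20 (-0.59, adjusted p = 0.000563) and Car4 (-0.88, adjusted p = 0.0235) lower.

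The same contrast among males labelled knockout gave lower values in the 129 line for 7 of 7 members, where 14.4% of 19208 genes passed in either direction, with log2 fold changes from -0.83 for Irgm1 (edgeR adjusted p = 0.00608) to -1.83 for Tgtp1 (adjusted p = 0.0024). Because the interaction of genotype and line did not pass for any member, the WT and KO results are not shown to differ. Strain, DSS dose and the deleted gene change together between the Dok3 line and the others, and cannot be told apart. Median Igtp levels in KO mice were 10.65 CPM in the Dok3 line, 11.85 in Dock2, 32.09 in Gpsm3 and 38.53 in Nckap1l.

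The rest of the pathway did not pass the adjusted threshold in any KO comparison. Of 9 further IRG family genes tested, 4, 4, 6 and 0 had an unadjusted p under 0.05, all with higher KO values, in the Nckap1l, Dock2, Gpsm3 and Dok3 lines. The shares over all genes were 4.5%, 5.1%, 4.86% and 2.19% in that order, so low counts in a list are no result about it. Of 6 interferon ligands and receptors tested these numbers were 0, 0, 1 and 0, and of 17 signal transduction genes 0, 1, 11 and 0, also higher in KO. Of 13 genes that load IRG proteins onto vacuoles or conjugate autophagy proteins, such as Atg5 and Atg7, they were 2, 0, 1 and 0. The median log2 fold change of the loading and conjugation genes lay between 0.02 and 0.04 in the 4 lines, against 0.01 to 0.89 for the members. Markers of macrophages, colonocytes and skin had 0 genes at an unadjusted p under 0.05 in each line. T and NK cell markers had 1, 0, 0 and 2 (lower in the Dok3 KO), neutrophil markers 1, 0, 0 and 1 (both lower), B cell markers 6, 6, 0 and 0 (all lower) and striated muscle markers 0, 2, 0 and 0 (lower).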

How the data were processed

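Ribosome-depleted RNA of distal colon was sequenced as 100-base single reads. Per the labels and the study's methods, the authors aligned to mm10 by STAR and assigned reads to genes by featureCounts of Subread. The deposited files hold raw counts of 39179 Ensembl genes per sample. The strand setting of the counting is not given in the sources used here. GENCODE annotation of GRCm38 named 37693 genes (96.2%, 99.67% of counts).

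CPM values were scaled by TMM over 160 samples, and log2 CPM used a prior count of 2. Each line was filtered with filterByExpr and fitted in edgeR 4.0.16 (R 4.3.3) by quasi-likelihood, with sex as a covariate where both sexes were present, and p-values were adjusted by Benjamini-Hochberg over all genes tested (threshold 0.05). All 7 members passed the filter in each line. In a simulation check that altered 200 genes by 1.5 (log2) per line, the fit recovered 90.5% of these among 17947 Nckap1l genes, 97.5% among 17648 Dock2, 98.5% among 17560 Gpsm3 and 94% among 17612 Dok3 genes, with 1.1%, 3.5%, 6.6% and 3.1% of its calls false. The altered genes were drawn at random and their counts independently. These rates do not give the recovery for the members, whose fitted KO changes were smaller and whose spread was larger than for most genes. Alternatives were DESeq2 1.42.0, limma-voom (limma 3.58.1), RLE scaling, no filter, and other sample sets or covariates. Correlations used 100000 permutations (scipy 1.17.1). Mice are separate animals, and sample-number blocks are runs of numbers in the labels.

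Genes named are the 7 members, Gm12250, Ifng, Irf1, the deleted genes, the genes most like the members (the 5 with the highest mean r, and 2 per member), and list genes past the threshold, at most 3 per list and contrast. Gm12185, Gm12188, Olfr56, Atg5 and Atg7 and the ranks of Nlrc5, Socs1 and Ciita were added after their values were seen. The members and gene lists were chosen with earlier results of these data known. Lists were IRG family, interferon ligands and receptors, interferon signalling, IRG loading and autophagy, and markers of 7 cell types. For 1 more gene named by the rule, individual values are not reported here.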

Additional observations from a re-analysis of the deposited data

Results flagged for a closer look

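Of 35 pairs of a member and a group of 4 to 10 mice, 12 held a mouse far from the others by Dixon's criterion. For normally distributed values chance alone flags about 1 of 20 groups. The criterion was applied to unlogged CPM, which is skewed upward here, so that rate need not hold. The members are also correlated, so these are not 12 independent events. Among 10 Dock2 KO males, replicate 3 stood apart for 6 members, at 254.0 CPM of Irgm1, 147.5 of Igtp, 289.4 of Iigp1, 88.48 of Ifi47, 30.49 of Tgtp1 and 25.59 of Tgtp2, with the nearest mouse at 151.2, 69.53, 87.84, 28.6, 9.18 and 10.91 CPM. Among 7 Nckap1l WT males, the highest mouse stood apart at 285.4 CPM of Iigp1, 105.4 of Ifi47 and 34.28 of Tgtp2. Among 8 Nckap1l WT females, the highest stood apart at 205.1 CPM of Iigp1 and 12.84 of Tgtp1. Among 4 Nckap1l KO females, the lowest stood apart at 22.81 CPM of Igtp, where the nearest had 38.51. Whether these mice received DSS is not in the labels, and no cause was tested.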

How the results depend on the processing

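No paired analysis was possible because the labels number animals and share no replicate number between groups. The count of members past the adjusted threshold stayed at 0 in each KO comparison, each interaction, the Nckap1l sex comparison and the comparison of wild-type males of 4 lines, under every alternative run there. For Dock2 females against males it was 4, and 5 in DESeq2 (11.9% of genes), 3 without a filter on low counts (4.69%), 1 in wild type only and 1 without KO replicate 3. For the 129 line it went from 0 to 7 in knockout males. Of the other alternatives, 113 left a count within 1.5 times and 497 left a gene's direction and side of the threshold. The causes of the changes given here were not tested unless the alternative itself names fewer samples or more genes. Leaving out libraries and fitting within blocks were chosen after seeing the data.

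Counts over all genes moved as follows. DESeq2 gave 5 genes in the Nckap1l KO comparison (0 in edgeR), 45 in Dock2 (6), 2 in Gpsm3 (1), 196 for Nckap1l sex (32) and 3 for the Dock2 interaction (35). Without a filter on low counts these numbers were 27, 31, 32, 55 and 294, and 15 for Dok3 (0). Limma-voom gave 0 for Dock2 and 1 for the genotype by line interaction (137). Males only gave 1 for Dock2. Without libraries holding skin or muscle RNA there were 79 for Dock2, 2 for Gpsm3, 8 for Nckap1l sex and 3202 for Dock2 sex (1721). Wild type only gave 5 for Nckap1l sex and 341 for Dock2 sex, the sample-number block 12 for Nckap1l sex, and the Gpsm3 line alone as reference 5323 for the 129 line (3162). Within blocks of sample numbers there were 2, 0 and 26 genes for the Nckap1l KO, 0 and 0 for Gpsm3 and 0 and 17 for Dok3. Leaving out each Nckap1l KO female in turn gave 0 to 1 for the interaction.

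Some directions turned. In the Dok3 KO, without libraries holding skin or muscle RNA, the log2 fold change was -0.22 for Irgm1, -0.30 for Igtp, -0.059 for Iigp1, -0.32 for Tgtp1 and -0.23 for Tgtp2. Without the KO library highest in Igtp it was -0.12 for Irgm1, -0.16 for Igtp, -0.20 for Tgtp1 and -0.15 for Tgtp2. There limma-voom gave 0.03 for Irgm2, -0.008 for Iigp1 and -0.015 for Tgtp2, DESeq2 -0.003 for Tgtp2, and the sample-number block 0.017 for Irgm2 and 0.012 for Ifi47. Irgm1 turned to -0.028 in the Nckap1l KO without replicate 14. For Nckap1l sex, without libraries holding skin or muscle RNA, values were 0.014 for Irgm2, 0.40 for Iigp1, 0.11 for Ifi47, 0.093 for Tgtp1 and 0.54 for Tgtp2, against -0.31, -0.59, -0.58, -0.84 and -0.35 with all libraries, and with the block 0.14 for Ifi47. The Nckap1l interaction of Tgtp2 lay between -0.247 and 0.010 with 1 KO female left out, the highest without replicate 4. Against the Gpsm3 line alone Ifi47 was 0.063 in the 129 line. Depth limits Tgtp1, whose lowest libraries hold fewer than 3 counts, and Ifng.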
